A study of Mus musculus with 10 samples.

Results

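Crosslinked sites of the RNA-binding proteins Cirbp and Rbm3 that lay outside every listed gene locus in mouse embryonic fibroblasts (MEFs) are described here. A site was taken as outside when not 1 nucleotide (nt) of it, on either strand, overlapped the locus of any of the 28702 transcripts of 22552 genes in the matched RNA-seq tables. By this rule 781 of 4059 deposited sites were outside, 369 of 1941 for Cirbp and 412 of 2118 for Rbm3. The shares were 19.0% (exact binomial 95% interval 17.3 to 20.8) and 19.5% (17.8 to 21.2). The sites were selected on their measured positions, so these shares and all distances to loci are descriptions. The 6 outside sites closest to a locus lay 2 to 29 nt from it, and the 6 inside sites with the least overlap shared 3 to 21 nt with one. Of the inside sites, 14 were only partly inside.

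Cirbp and Rbm3 are small glycine-rich proteins with an RNA recognition motif, known for their induction by mild cold. In PAR-CLIP, cells take up 4-thiouridine, ultraviolet light crosslinks labelled RNA to a bound protein, and the RNA recovered with the protein is sequenced. Mature mRNAs end at a poly(A) site, and a gene can have several of these. RNA past the last annotated one is outside the gene in an annotation. Transcription can likewise begin before an annotated start, and many promoters also give rise to a transcript on the opposite strand.

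The 2 PAR-CLIP libraries came from MEF lines stably expressing FLAG-tagged Cirbp or FLAG-tagged Rbm3, labelled with 100 µM 4-thiouridine for 16 h, listed at 37 °C and recovered with an anti-Flag antibody. With 1 library a protein there was no replicate and no test between the proteins. Intervals on shares cover counting error only and treat sites as independent, although sites of 1 gene share their transcript. The tagged proteins come from introduced copies, and nothing here shows their level beside that of the cells' own proteins. Polyadenylated RNA was sequenced from 8 further MEF libraries with single 76-nt reads. Each of 4 groups had 2 libraries: mock transfection at 37 °C, mock transfection at 32 °C, siRNA against Cirbp at 37 °C (siCirbp) and siRNA against Rbm3 at 37 °C (siRbm3). The siRNA groups have mock transfection as their control, and no control siRNA. Whether the libraries of a group are separate cultures is not stated in the labels, so p-values measure the spread between these libraries.

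Depth was 24.8 to 27.8 M fragments per RNA-seq library. Fibroblast markers were present, with 10 of 12 at a mean of at least 5 FPKM (fragment counts set against transcript length and library size). The exceptions were Thy1, listed at 0 in all libraries, and Lum. Of the 20 listed markers of other cell types, Krt19, Cd68 and Des had a mean of at least 1 FPKM. Cirbp, the target of the first siRNA, measured 15.9 and 17.1 FPKM in mock cells at 37 °C, 34.5 and 37.2 at 32 °C, 10.8 and 6.07 with siCirbp, and 13.8 and 23.8 with siRbm3. Limma's adjusted p for Cirbp was 0.0313 at 32 °C and 0.116 with siCirbp. Rbm3 measured 1.85 and 2.21, then 3.64 and 3.20, then 5.54 and 7.55, and under the label siRbm3 3.05 and 1.16. The first library labelled siRbm3 thus lay above both mock libraries at 37 °C for the gene it targets, and limma's adjusted p for Rbm3 there was 0.971.

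Outside sites had a lower median score and width than inside sites, by little for Cirbp and more for Rbm3. The score is the authors' value, a whole number from 1 to 1000 on a scale that is not given, and it is compared only within a library. Outside Cirbp sites had a median score of 282 (quartiles 159 and 410) and inside sites 309.5 (233 and 392), so that the upper quartile was higher outside. For Rbm3 the medians were 260 (quartiles 144.5 and 410) and 334 (201 and 448). The lowest score of 1 was held by 54 of 369 outside and 123 of 1572 inside Cirbp sites, and by 80 of 412 outside and 127 of 1706 inside Rbm3 sites. The highest score of 1000 was held by 2 outside and 1 inside for Cirbp, and by 7 outside and 7 inside for Rbm3. Median width was 28 nt outside and 29 nt inside for Cirbp, and 25 nt outside and 29 nt inside for Rbm3, with a range of 18 to 290 nt outside.

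A larger share of outside than of inside sites overlapped a site of the other protein. Of the outside Cirbp sites, 96 of 369 (26.0%, 21.6 to 30.8) overlapped an Rbm3 site on the same strand by at least 1 nt, against 270 of 1572 inside (17.2%, 15.3 to 19.1). Of the outside Rbm3 sites, 95 of 412 (23.1%, 19.1 to 27.4) overlapped a Cirbp site, against 271 of 1706 inside (15.9%, 14.2 to 17.7). The intervals of the outside and inside shares do not overlap within either library. Leaving out the cluster on chromosome 17 described next and the mitochondrial sites, an alternative added after the data were seen, the shares were 82 of 348 for Cirbp (23.6%, 19.2 to 28.4) and 81 of 397 for Rbm3 (20.4%, 16.5 to 24.7). The intervals for Rbm3 then overlap with those inside.

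Each deposited site carries 1 marked nucleotide, whose meaning is not given in the sources used here. It was the same nucleotide in 43 of the 96 outside pairs (44.8%, 34.6 to 55.3) and in 64 of 277 inside pairs (23.1%, 18.3 to 28.5). Scores of the 2 libraries rose together over the outside pairs, with a Spearman's rho of 0.57, against 0.37 over the inside pairs. These are descriptions across pairs that share loci and, in clusters, transcripts. The outside pairs include those of the chromosome 17 cluster, whose sites had median scores of 749 for Cirbp and 798 for Rbm3. The rho and the share with the same marked nucleotide were not recomputed without that cluster. Shared outside sites had higher scores than unshared ones, with medians of 365.5 against 260 for Cirbp and 401 against 233 for Rbm3. They were also wider, with medians of 36.5 against 26 nt and 35 against 23 nt, and a wider site has more room to overlap another.

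**Figure D1:**
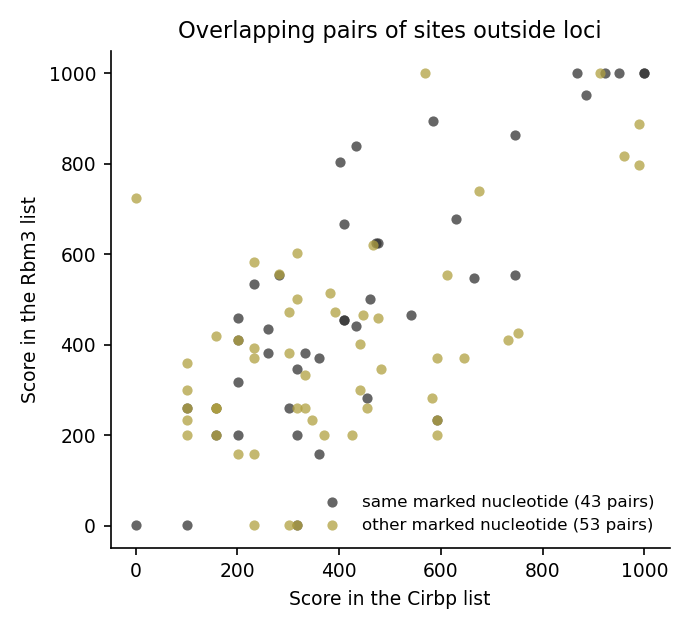
Scores of the 96 overlapping pairs of outside sites, with the score in the Cirbp list on the x axis and that in the Rbm3 list on the y axis. Dark points are the 43 pairs with the same marked nucleotide, and pairs with a score of 1000 in both lists sit in the top right corner.

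The highest-scoring outside sites were mostly found with both proteins and far from any locus. Pairs are ordered by the score that ranked lower in its library. The site at chr11:108873186-108873363 (mm9, minus strand) had a score of 1000 in both libraries and the same marked nucleotide, 61091 nt from Axin2. RefSeq lists the lncRNA Gm36876 and the snRNA Gm24149 between Axin2 and the next gene on the other side, E030025P04Rik. It was the strongest member of a cluster of 6 sites, 3 of each protein, that spanned 405 nt. A site at chr13:54285521-54285553 (mm9, minus strand) also scored 1000 in both libraries with the same marked nucleotide, 1945 nt upstream of Hrh2 and antisense to it. Hrh2 encodes the histamine H2 receptor and had 0 FPKM in 5 of the 8 RNA-seq libraries and at most 0.0818 in the others. A site at chr6:3151463-3151547 (mm9, plus strand) scored 951 for Cirbp and 1000 for Rbm3, 86972 nt from Gm8579. The site at chr14:20110678-20110723 (mm9, plus strand) scored 922 and 1000, 302637 nt from Gm5458. In both of these pairs the marked nucleotide was again the same. Among the 10 highest-scoring outside sites of each library, all 10 of Cirbp were shared, and the 2 unshared ones of Rbm3 were at chr2:46160100-46160124 with a score of 1000 and chr12:93346534-93346559 with 911 (both mm9, minus strand). These lay 606133 nt from 1700019E08Rik and 258937 nt from Sel1l. A shared Rbm3 site at chr16:17222473-17222514 (mm9, plus strand) scored 895, 8398 nt from Rimbp3. The highest-scoring outside Cirbp site within 1 kb of a locus was a shared one with a score of 960, 308 nt downstream of Ipo7, which encodes a nuclear import receptor.

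The largest group of outside sites was at chr17:39983409-39985150 (mm9, plus strand), where 12 Cirbp and 11 Rbm3 sites filled 1742 nt. Of these 23 sites 22 were shared, scores ran from 233 to 1000, and the widest site was 290 nt. The pair at chr17:39984922-39985150 scored 912 for Cirbp and 1000 for Rbm3, with marked nucleotides 61 nt apart. The nearest listed locus, Pgk2, was at least 358813 nt away. RefSeq lists 8 genes between Esp23 and Pgk2, among them Rn18s-rs5, a pseudogene named for 18S ribosomal RNA, and the lncRNA AY036118. Their coordinates are in another genome build, so the sites were not placed on them. How reads that align to several places were treated is not given in the sources used here, and their part in these scores was not tested.

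Mitochondrial sites were outside by construction, since the tables list no locus on chrM. There were 9 of Cirbp, 7 of them on the plus strand, and 4 of Rbm3, 3 of them on the plus strand. The 3 highest Cirbp scores were 541, 460 and 334, and the 3 highest Rbm3 scores 466, 282 and 260. A cluster of 7 sites, 4 of Cirbp and 3 of Rbm3, lay at chrM:1932-2524 (mm9, plus strand) and held the top site of each protein. In RefSeq the plus strand of this chromosome begins with tRNA genes and both ribosomal RNA genes, mt-Rnr1 and mt-Rnr2.

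Outside sites on chromosomes with a listed locus were spread over a wide range of distances, and the median was smaller for Cirbp. The median distance was 18115 nt for Cirbp (10 to 2086931) and 29908 nt for Rbm3 (2 to 2085094). Within 5 kb of a locus were 119 Cirbp sites (32.2%, 27.5 to 37.3) and 96 Rbm3 sites (23.3%, 19.3 to 27.7). More than 50 kb away were 127 Cirbp sites (34.4%) and 173 Rbm3 sites (42.0%). The remaining sites on chromosomes with loci lay between, 114 of Cirbp and 139 of Rbm3. In the RefSeq annotation the interval between the flanking listed genes held no further gene for 72 of 347 Cirbp sites (20.7%) and 67 of 395 Rbm3 sites (17.0%) whose flanking genes were matched. It held at least 1 lncRNA gene for 173 (49.9%) and 219 (55.4%). This says what is annotated in the interval, not that a site lies in it.

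Near loci the Cirbp sites had a side, and the Rbm3 sites had one less clearly. Read along the strand of the site, the nearest locus lay on the 5′ side, so that the site followed it, for 106 of the 119 Cirbp sites within 5 kb (89.1%, 82.0 to 94.1) and for 60 of the 96 Rbm3 sites (62.5%, 52.0 to 72.2). Under 1 kb these were 46 of 49 Cirbp sites (93.9%, 83.1 to 98.7) and 29 of 49 Rbm3 sites (59.2%, 44.2 to 73.0). Between 5 and 50 kb they were 65 of 114 (57.0%) and 69 of 139 (49.6%), and beyond 50 kb 48 of 127 (37.8%) and 73 of 173 (42.2%). In both libraries the share on the 5′ side was thus larger within 5 kb than beyond it. For Rbm3 the interval within 5 kb overlaps that between 5 and 50 kb (41.1 to 58.2). Among Rbm3 sites at or above the median score of the library the share on the 5′ side was 79.1%.

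**Figure D2:**
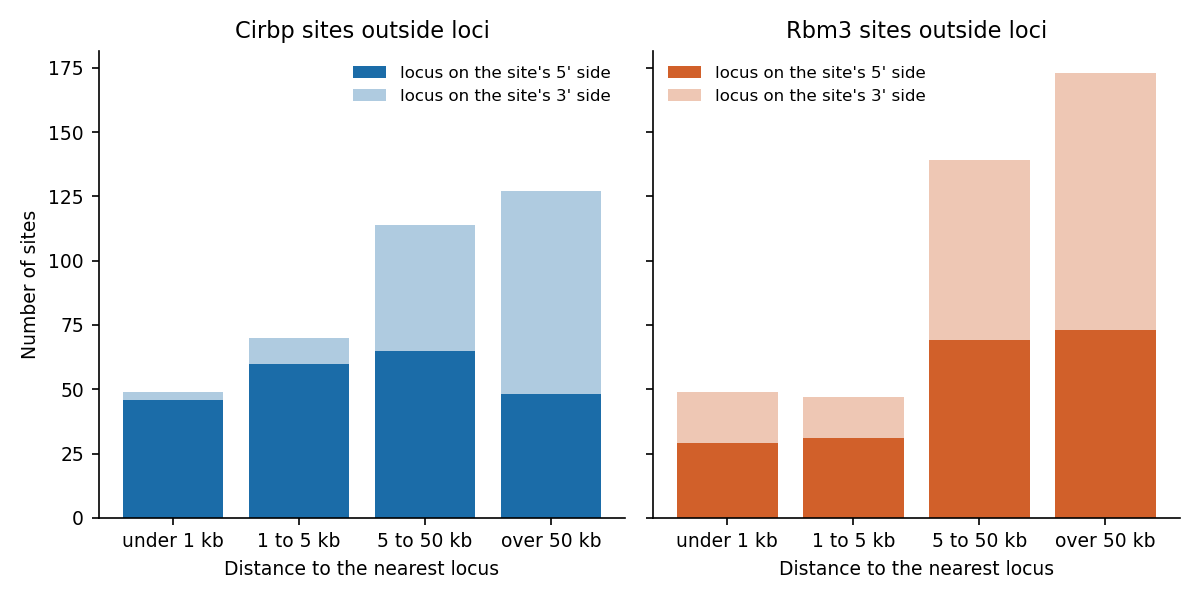
Number of outside Cirbp sites (left) and Rbm3 sites (right) by distance to the nearest locus, split by whether the locus lies on the 5′ side (dark) or the 3′ side (pale) of the site. Under 1 kb 46 of 49 Cirbp sites and 29 of 49 Rbm3 sites have the locus on the 5′ side.

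The strand of the nearest gene split these sites into 4 positions. It was known for 179 of 215 sites within 5 kb, 161 from RefSeq and 18 from the gene's own inside sites. As a check, 2540 of 2542 inside sites (99.9%) over loci of 1 gene were on that gene's strand. Of 103 Cirbp sites 75 lay downstream on the gene's strand (72.8%, 63.2 to 81.1), 5 upstream on the gene's strand (4.85%, 1.59 to 11.0), 20 upstream antisense (19.4%) and 3 downstream antisense. Of 76 Rbm3 sites 30 lay downstream on the gene's strand (39.5%, 28.4 to 51.4), 24 upstream on the gene's strand (31.6%, 21.4 to 43.3), 15 upstream antisense (19.7%) and 7 downstream antisense. The intervals of the 2 libraries do not overlap for either sense position, which compares these libraries and not the proteins. Counting each gene once per position, the downstream sense share was 63.1% for Cirbp and 32.8% for Rbm3. The upstream sense sites of Rbm3 had a median score of 159 and its downstream sense sites 387, so the positions were also compared over sites at or above the median score of their library. Downstream sense sites were then 77.0% of the Cirbp sites (64.5 to 86.8) and 50% of the Rbm3 sites (32.4 to 67.6). Upstream sense sites were 3.28% (0.40 to 11.3) and 14.7% (4.95 to 31.1). The intervals of the libraries then overlap for both positions.

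**Figure D3:**
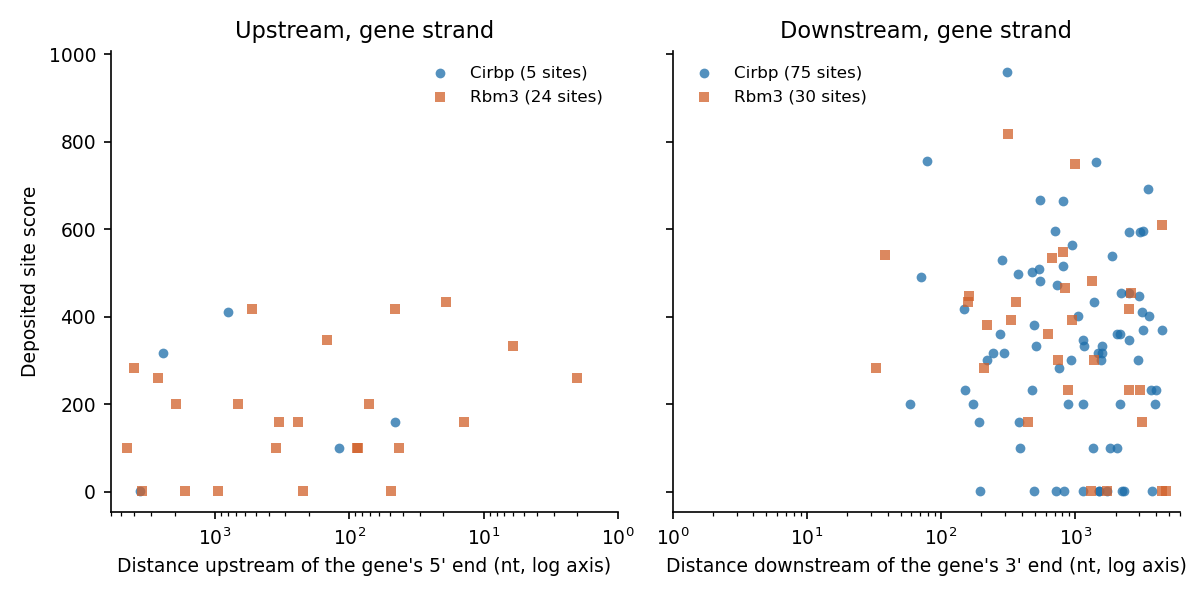
Deposited score against distance for outside sites on the strand of the nearest gene, upstream of its 5′ end (left) and downstream of its 3′ end (right), on logarithmic distance axes in nt. Upstream sites are 24 of Rbm3 and 5 of Cirbp, and the Rbm3 ones reach to 2 nt from the gene, while downstream sites are 75 of Cirbp and 30 of Rbm3.

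The 5 genes with most outside sites, described next, were followed by 31 of the 75 downstream sense sites of Cirbp and 10 of the 30 of Rbm3. The other 44 and 20 were spread over 36 and 18 genes, with at most 3 Cirbp or 2 Rbm3 sites each. Sox4, a transcription factor of the SRY-box family, had 9 Cirbp sites and 1 Rbm3 site from 242 to 1573 nt past its listed end, with scores of 201 to 754. They lay at chr13:29040989-29042357 (mm9, minus strand), while inside the Sox4 locus there were 0 Cirbp and 2 Rbm3 sites. Here and for the genes below, inside counts take only sites that overlap loci of no other gene. Klhl15, a substrate adaptor of a ubiquitin ligase, was followed by 7 Cirbp and 2 Rbm3 sites and had 7 and 11 inside. Of those that followed it, 6 formed a cluster at chrX:91521347-91522387 (mm9, plus strand), 2493 to 3502 nt from the locus. The paralogues Pura and Purb, single-stranded nucleic acid-binding proteins, were each followed by sites of both proteins, 6 Cirbp and 3 Rbm3 for Pura and 4 and 4 for Purb. Each had 0 Cirbp and 5 Rbm3 sites inside its locus. The main Purb cluster lay at chr11:6372227-6373904 (mm9, minus strand), 881 to 2505 nt from the locus. Cpeb4, a cytoplasmic polyadenylation element-binding protein, was followed by 5 Cirbp sites between 734 and 3969 nt and had no site inside. Downstream sense sites of both proteins followed 8 genes, of 41 followed by Cirbp and 22 followed by Rbm3 sites.

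**Figure D4:**
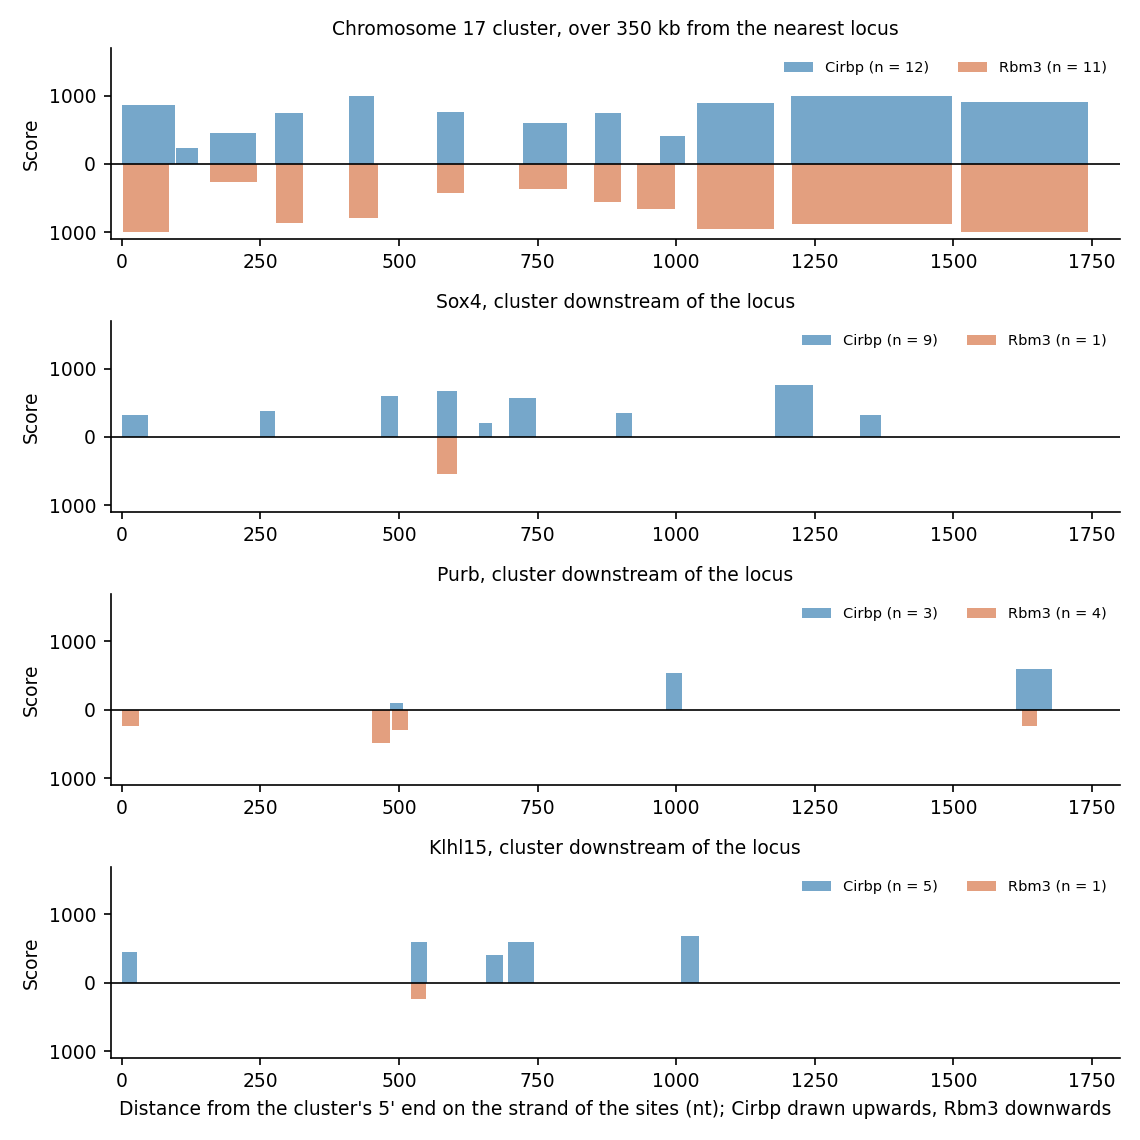
Outside sites of 4 clusters, drawn to scale by distance in nt from the 5′ end of the cluster on the strand of the sites, with Cirbp scores upwards and Rbm3 scores downwards. On chromosome 17 the sites of both proteins sit at the same places, while behind Sox4 there are 9 Cirbp sites and 1 Rbm3 site.

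Over all outside sites, 278 of 781 (35.6%) lay in clusters of 2 or more with gaps of at most 1 kb when both proteins were pooled, against 46.8% of inside sites. A shared pair is a cluster by construction, so all 191 shared outside sites count among the 278, and of the 590 unshared ones 87 (14.7%) did. Taken by itself, 22.2% of the outside Cirbp sites and 12.9% of the outside Rbm3 sites were in clusters, against 28.4% and 39.2% of inside sites. Outside and inside sites were clustered apart, so an outside site close to an inside one could count as unclustered. The inside sets were also larger, 1572 and 1706 against 369 and 412 sites, and the shares were not matched for this.

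Upstream antisense sites included many shared ones. Of these 8 of 20 Cirbp sites and 8 of 15 Rbm3 sites overlapped a site of the other protein. Of the downstream sense sites 7 of 75 and 7 of 30 did, and the difference between the positions was not tested. At the gene level 9 genes had upstream antisense sites of both proteins, of 16 with Cirbp and 15 with Rbm3 sites. They were Adck1, B3gnt1, C920006O11Rik, Cyp2c70, Hrh2, Mrpl3, Nox4, Smad3 and Smarcc2. Within these 9 genes the largest scores after those at Hrh2 were 621 and 583, of Rbm3 sites 722 nt from Adck1 and 475 nt from B3gnt1. An unshared Rbm3 site 2089 nt upstream antisense of Ttc28 scored 763. Genes were named here after their values were seen.

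Upstream sites on the gene's strand were mostly of Rbm3 and close to the listed start. Within 250 nt of a locus with a known strand, 13 of 19 Rbm3 sites were of this kind (68.4%, 43.4 to 87.4) and 2 of 12 Cirbp sites. Igf2bp1, an mRNA-binding protein, had its site 2 nt away with a score of 260, and the Wnt receptor gene Fzd2 had one 6 nt away with 334. For Zcchc14 the distance was 14 nt and the score 159. The corepressor gene Irf2bp1 had the highest score, 434, at 19 nt. Rbm15b, which encodes an RNA-binding protein, had a score of 101 at 43 nt. Med13, a subunit of the Mediator complex, was the one gene with a site of both proteins, at 46 nt with 419 for Rbm3 and 159 for Cirbp. The site of the acetyltransferase gene Crebbp at 49 nt scored 1, as did that of the corepressor gene Ski at 222 nt. Pabpc4l, Pde7a and Ywhaq had sites at 71, 86 and 87 nt with scores of 201, 101 and 101. The homeobox gene Hoxd11 had one at 147 nt with 347 and was listed at 0 FPKM in all 8 libraries. The zinc finger factor Yy1 had one at 241 nt with 159. The other Cirbp site was 119 nt from Sema6b, with a score of 101. These genes were named after their values were seen.

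The genome build of the sites was not at hand as sequence, so the letters of the sites themselves are not shown. To show what lies upstream of such genes, the 250 bases before the start are printed for the 3 with the highest Rbm3 score among those with a single promoter in the RefSeq table (GRCm38.p6). CG dinucleotides are in capitals. The start in that table may differ from that of the listed locus, and the sites were not placed on these letters.
Irf2bp1, chr7:19003808-19004057, plus strand: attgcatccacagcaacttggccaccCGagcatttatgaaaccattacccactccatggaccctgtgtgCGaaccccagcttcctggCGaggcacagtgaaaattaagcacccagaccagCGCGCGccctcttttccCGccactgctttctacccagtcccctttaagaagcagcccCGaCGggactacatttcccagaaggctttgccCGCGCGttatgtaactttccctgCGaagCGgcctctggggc
Med13, chr11:86357597-86357846, minus strand: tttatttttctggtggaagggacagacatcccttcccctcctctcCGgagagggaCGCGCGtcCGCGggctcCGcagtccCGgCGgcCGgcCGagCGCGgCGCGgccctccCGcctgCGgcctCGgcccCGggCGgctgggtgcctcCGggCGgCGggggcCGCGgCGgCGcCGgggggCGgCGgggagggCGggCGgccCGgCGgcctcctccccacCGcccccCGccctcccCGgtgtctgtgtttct
Pabpc4l, chr3:46447942-46448191, minus strand: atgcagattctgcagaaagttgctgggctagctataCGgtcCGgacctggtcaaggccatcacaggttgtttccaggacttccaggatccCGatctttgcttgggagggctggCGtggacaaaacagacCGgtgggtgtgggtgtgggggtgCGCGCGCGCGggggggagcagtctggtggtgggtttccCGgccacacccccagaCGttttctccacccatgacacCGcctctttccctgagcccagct
These held 14, 37 and 13 CG dinucleotides at 57.2%, 80.0% and 61.6% G and C. The median over all 27025 genes of the table, read over the same 250 bases, was 6 and 52.0%. Hoxd11, whose score of 347 was higher than that of Pabpc4l, has 2 promoters in the table, and the one read there held 2 at 44.8%, below these medians. Pabpc4l had at most 0.00737 FPKM in any library. Of the 14 genes with an upstream sense site within 250 nt of either protein, 3 had no entry in the table. The other 11 had medians of 25 CG dinucleotides (2 to 53) and 66.4% G and C (44.8 to 87.6). These medians leave out the 3 genes without an entry, and the difference from all genes was not tested.

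Genes near outside sites were expressed more often than the average gene. Of the 136 genes that were nearest to an outside site within 5 kb, 98 (72.1%, 63.7 to 79.4) reached 1 FPKM as the mean of all libraries, with a median of 9.02 FPKM, where 48.3% of all genes did and the median was 0.615 FPKM. For genes followed by Cirbp sites on their own strand these were 38 of 41 (92.7%) and for those followed by Rbm3 sites 17 of 22 (77.3%). Genes with an Rbm3 site upstream sense reached 16 of 23 (69.6%). The nearest genes of sites beyond 50 kb reached 46 of 106 (43.4%) for Cirbp and 59 of 150 (39.3%) for Rbm3. Gene level in bulk RNA cannot tell fewer expressing cells from less RNA per cell.

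Many neighbour genes also carried inside sites of the same protein. Inside sites were counted for a gene only where they overlapped loci of no other gene. This held for 21 of 80 Cirbp neighbours (26.3%) and 19 of 85 Rbm3 neighbours (22.4%), where 4.15% and 4.62% of all genes had such an inside site. Among genes followed by Cirbp sites it was 19 of 41 (46.3%), and among genes with an Rbm3 site upstream sense 11 of 23 (47.8%). Both shares are partly set by the selection, since some genes had a known strand only through their inside sites. Among these were Cnot7, BC005537 and Csnk1a1 for Cirbp and Igf2bp1, Fzd2 and Pde7a for Rbm3, each with inside sites of that protein. Genes with no known strand were left out of both sets. Neighbours of both proteins numbered 29. These shares are not matched for expression level, and its part in them was not tested.

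The RNA-seq groups show how neighbour genes moved at 32 °C and after the siRNAs. The 3 comparisons share the mock libraries at 37 °C. All were fitted together with limma over 10901 genes whose mean reached 1 FPKM, on log2(FPKM + 1), and called at a Benjamini-Hochberg adjusted p under 0.05. Of the 136 neighbours 98 passed this filter.

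At 32 °C more neighbours fell than rose. Limma called 36 of 98 (36.7%), with 7 higher and 29 lower, where 32.8% of all genes tested were called, 13% higher and 19.8% lower. The share called was near that of all genes. The median log2 difference was -0.27 over the neighbours and -0.02 over all genes. Centring each library on its median shifted the median of all genes to 0.11, and the calls were then 10 higher and 26 lower. The calls, of neighbours and of all genes, rested on both libraries of each mock group. Without mock 37 °C replicate 1, 10 neighbours and 6.0% of all genes tested were called, and without mock 32 °C replicate 1, 10 and 7.58%. Without mock 37 °C replicate 2 these were 4 and 3.67%, and without mock 32 °C replicate 2, 5 and 3.67%.

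Among the neighbours that fell, Aurkb, a mitotic kinase with a Cirbp site 4292 nt upstream antisense, measured 13.9 and 14.2 FPKM at 37 °C and 1.79 and 1.89 at 32 °C. Its log2 difference was -2.41 ± 0.13 (SE, limma adjusted p = 0.000992). Glg1, a Golgi glycoprotein gene followed by a Cirbp site at 1135 nt, measured 159.8 and 153.5 FPKM and then 61.4 and 61.7, a log2 difference of -1.33 ± 0.13 (SE, limma adjusted p = 0.00191). Ccdc6, followed by a Cirbp site at 2029 nt, went from 28.9 and 26.8 to 11.1 and 10.3 FPKM (limma adjusted p = 0.00244). Smarcc2, a subunit of the SWI/SNF chromatin remodeller with an antisense site of both proteins 726 nt upstream, went from 50.6 and 51.4 to 24.2 and 23.3 FPKM (limma adjusted p = 0.00286). None of the libraries of the 2 groups overlapped for these genes. All 4 were called under each of 14 alternatives, with a highest adjusted p of 0.01, 0.0341, 0.0399 and 0.0454 by limma.

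Those that rose at 32 °C included 6330409N04Rik, which went from 4.67 and 4.67 to 10.4 and 12.8 FPKM, a log2 difference of 1.15 ± 0.17 (SE, limma adjusted p = 0.00484). Eps8, an actin regulator with an Rbm3 site 335 nt upstream, went from 25.1 and 25.8 to 47.6 and 48.8 FPKM (limma adjusted p = 0.00542). Kpna1, a nuclear import adaptor, went from 17.0 and 16.4 to 31.7 and 34.6 FPKM (limma adjusted p = 0.00968). The transcript C920006O11Rik, with an antisense site of both proteins 514 nt upstream, went from 1.43 and 1.24 to 3.45 and 3.40 FPKM (limma adjusted p = 0.0102). The groups did not overlap for these genes either, and no alternative changed the sign of their differences. Their calls were lost in fits without 1 mock library, in which far fewer of all genes tested were called too. The calls of 6330409N04Rik and Eps8 were lost without mock 37 °C replicate 2 or mock 32 °C replicate 2, and that of Eps8 also without mock 37 °C replicate 1. Those of Kpna1 and C920006O11Rik were lost without any 1 of the 4 mock libraries. Over all alternatives the highest limma adjusted p of these 4 genes was 0.0647, 0.0667, 0.0915 and 0.0943.

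Of the genes followed by many sites, Sox4 was lower at 32 °C. It measured 39.6 and 43.6 FPKM in mock cells at 37 °C, 25.9 and 23.3 at 32 °C, 43.5 and 39.6 with siCirbp, and 40.5 and 42.5 under the label siRbm3. Its log2 difference at 32 °C was -0.73 ± 0.14 (SE, limma adjusted p = 0.00935), and both siRNA groups lay within the range of the mock values at 37 °C. Klhl15 measured 3.45 and 3.20, then 3.85 and 4.18, then 2.20 and 2.60, then 2.54 and 1.97 FPKM. No comparison of Klhl15 passed, although both libraries of each siRNA group lay below both mock libraries at 37 °C. Pura, Purb and Cpeb4 had lower values at 32 °C in both libraries than in either mock library at 37 °C, with limma adjusted p of 0.0839, 0.107 and 0.17.

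Of the 16 tested genes with an Rbm3 site upstream sense, limma called 11 at 32 °C, where 32.8% of all genes tested were called. Of these 10 fell and 1, Eps8, rose, with a median log2 difference of -0.70 over the 16. The grouping was made after the data were seen. Yy1 went from 41.9 and 42.2 to 21.5 and 22.4 FPKM, a log2 difference of -0.91 ± 0.17 (SE, limma adjusted p = 0.00957). Ski went from 25.6 and 28.3 to 15.2 and 15.2 FPKM, and Zcchc14 from 30.7 and 33.3 to 18.3 and 17.2 FPKM. Irf2bp1 went from 7.47 and 9.33 to 4.47 and 3.93 FPKM, and Fzd2 from 20.7 and 28.6 to 10.6 and 12.4 FPKM. In each of these the 32 °C libraries lay below both 37 °C mock libraries. Igf2bp1, Rbm15b, Crebbp, Agbl5 and Msl1 were the others that fell. Scaling, filters, pseudocount and the replicate block left 10 or 11 of the 16 called, where 19.6% to 36.9% of all genes tested were called. Without any 1 of the mock libraries fewer of the 16 were called, as of all genes tested. In each of these fits 13 of the 16 were lower at 32 °C, with a median log2 difference from -0.76 to -0.69.

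**Figure D5:**
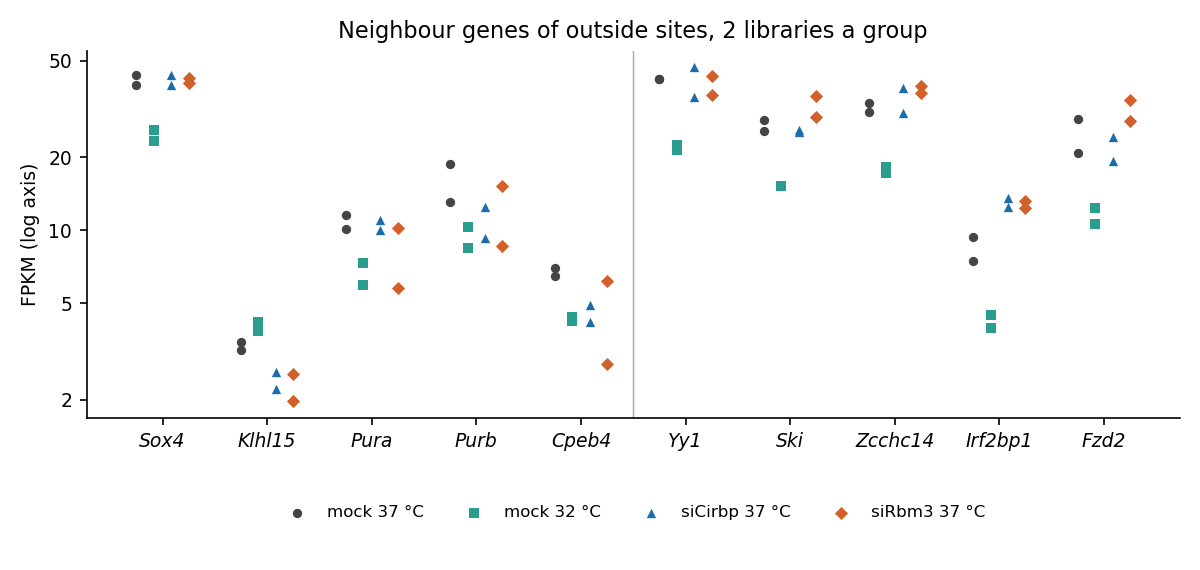
FPKM on a logarithmic axis of 5 genes followed by many outside sites (left of the line) and 5 genes with an Rbm3 site upstream on their strand (right), 1 point a library and 2 libraries a group. The 32 °C points of Yy1, Ski, Zcchc14, Irf2bp1 and Fzd2 lie below both mock points at 37 °C, while those of Klhl15 lie above them.

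With siCirbp few neighbours moved. Limma called 2 of 98, where 3.39% of all genes tested were called, 2.77% higher and 0.624% lower. Aurkb rose from 13.9 and 14.2 to 32.2 and 32.6 FPKM, a log2 difference of 1.15 ± 0.13 (SE, limma adjusted p = 0.0211). Chek2, a checkpoint kinase followed by an Rbm3 site at 2520 nt, rose from 4.23 and 4.43 to 10.5 and 7.97 FPKM (limma adjusted p = 0.0376). Both lost their call without siCirbp replicate 2, without any 1 of the 4 mock libraries and with the replicate block, and Chek2 also without a filter on low values. Of the 38 tested genes followed by Cirbp sites limma called 0 with siCirbp, and 7 had an unadjusted p under 0.05, as had 2642 of the 10901 genes tested. In the libraries labelled siRbm3 limma called 0 of 98 neighbours, where 0% of all genes tested were called, and 9 neighbours and 1451 of all genes had an unadjusted p under 0.05. Leaving out the first of these libraries gave 18 called neighbours, where 8.75% of all genes tested were called, and leaving out the second gave 2, where 0.20% were called, with the remaining one taken to vary like the other groups.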

How the data were processed

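Sites were read from the 2 lists the authors deposited, with their score, on mm9 per the file headers. The caller of the sites, the scale of the score, the filter named in the header and the treatment of reads with several positions are not given in the sources used here. FPKM, coverage and transcript length were used as deposited by the authors, with reads aligned by TopHat 1.1.2 per the submitters' processing notes. The deposited coverage divided by FPKM gave the number of fragments per library.

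A site was outside if it overlapped no transcript locus on either strand. Distance ran from its edge to the nearest locus edge, and neighbours were nearest genes within 5 kb. Sites were shared at 1 nt of overlap on the same strand. Intervals are exact (Clopper-Pearson) at 95%. Gene names, strands and promoters came from RefSeq (GRCm38.p6), which matched 28505 transcripts, and no coordinate was converted between builds.

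FPKM were summed per gene, filtered at a mean of 1 FPKM and fitted as log2(FPKM + 1) with limma 3.58.1 (R 4.3.3), with 4 group means, trend and robust options, two-sided, adjusted over all genes. The fit was tested on simulated data. Named sites are the 10 highest-scoring per protein, the 5 largest clusters and the 5 top shared sites. Named genes are their neighbours, the 5 with most sites and the 4 strongest calls in each direction. Members, lists and rules were chosen with earlier results of these data known. Python 3.11.15 was used for the rest.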

Additional observations from a re-analysis of the deposited data

How the results depend on the processing

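The shares of outside sites, sharing, distance, side, position, clusters, score and width were recomputed with other overlap rules, loci, distances, gaps and score thresholds, and 47 of 63 recomputed values stayed within the interval of the main one. Restricting to sites at or above the median score gave 17.0% of Cirbp and 15.0% of Rbm3 sites outside, 27.7% of outside Rbm3 sites shared, 39.7% of Cirbp sites within 5 kb, 79.1% of Rbm3 sites within 5 kb with the locus on the 5′ side, widths of 30 nt for Cirbp and 28.5 nt for Rbm3, and 14.7% of Rbm3 sites upstream sense. With loci of FPKM above 0 alone, 21.8% of Rbm3 sites were outside. Within 1 kb lay 13.3% of Cirbp and 11.9% of Rbm3 sites, and within 10 kb 40.7% and 32.0%. A gap of 200 nt put 32.0% of pooled sites and 15.2% of Cirbp sites in clusters. Counting genes once gave 63.1% downstream sense for Cirbp.

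Of 54 tested neighbours within 1 kb, 22 were called at 32 °C, where 32.8% of all genes tested were called. With siCirbp 0 of these 54 were called, where 3.39% of all genes tested were. Within 10 kb 4 of 127 were called with siCirbp, beside the same 3.39%. Without a filter on low values 1 of 125 neighbours within 5 kb was called with siCirbp, beside 0.34% of all genes tested. Leaving out 1 library gave 4 to 48 of 98 neighbours called at 32 °C, beside 3.67% and 46.4% of all genes tested. With siCirbp it gave 0 to 10 of 98, and where 10 were called, 14.8% of all genes tested were. In the libraries labelled siRbm3 it gave 0 to 18 of 98, and where 18 were called, 8.75% of all genes tested were. Each such fit leaves 1 library in a group, which is taken to vary like the other groups. Gene-by-gene differences between replicate 1 and replicate 2 of a group correlated between groups with Pearson's r from -0.15 to 0.09. Such correlations cannot show whether equal replicate numbers mark paired libraries. With the replicate block 33 of 98 neighbours were called at 32 °C, where 29.2% of all genes tested were called. With siCirbp the block left 0 of 98 called, where 0.03% of all genes tested were.

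With 1 PAR-CLIP library a protein, no difference between the proteins has a replicate check. Score scale and crosslinked base are not known, and sites near a locus depend on where the annotation ends it.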
